A study of Mus musculus with 2 samples.

Results

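The replication-dependent histone genes were taken from the deposited table as the rows whose symbol begins with Hist, a cluster number from 1 to 4 and h. This rule found 71 of 37451 genes, which carried 70 symbols because *Hist2h3c1* stood under a pair of gene identifiers. By histone type there were 6 genes for the linker histone H1, 20 for H2a, 19 for H2b, 13 for H3 and 13 for H4. The rule used names only, and no measured value entered it.

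RNA-Seq of bone marrow-derived macrophages (BMDMs) was performed with 1 library per genotype, as a control for the mapping of binding sites of tristetraprolin (TTP), an RNA-binding protein that promotes mRNA decay. The WT library came from C57BL/6 mice, and the ΔM library came from C57BL/6 TTP fl/fl LysMCre littermates, in which the lysozyme M locus drives Cre in myeloid cells. Mice were 7 to 9 weeks old, and both cultures received 100 µM 4-thiouridine for 16 h and then LPS at 10 ng/ml for 6 h by the treatment protocol, while the sample titles read LPS7. Ribosomal RNA was depleted from total RNA and no poly(A) selection was described. Levels are FPKM, fragments scaled by the length of the exons and by the number of fragments mapped in the library. With 1 library per genotype no test between genotypes was possible, and the 95% intervals given here cover the counting of fragments only, not the spread between mice or cultures.

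Canonical histone mRNAs are made in bulk during S phase, when newly copied DNA has to be packed into nucleosomes. They lack a poly(A) tail and instead end just behind a conserved RNA hairpin, the histone stem-loop, which is bound by the stem-loop binding protein SLBP and cut with the help of the U7 small nuclear ribonucleoprotein. In cells that have left the cycle, chromatin is served largely by replication-independent variant genes with ordinary polyadenylated mRNAs, and some canonical genes can also give polyadenylated transcripts.

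The hairpin is the feature that sets these mRNAs apart, so its genomic letters are shown for members that carried the main values. The sites lie on the mouse genome NCBIM37 (mm9), behind the stop codon of each gene, and are written 5′ to 3′ on the strand of the gene with the stem-loop in capitals.
Hist1h4d (chr13:23673814-23673839, plus strand): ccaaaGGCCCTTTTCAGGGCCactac
Hist1h4c (chr13:23789953-23789978, minus strand): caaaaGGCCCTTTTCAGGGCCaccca
Hist4h4 (chr6:136752514-136752539, minus strand): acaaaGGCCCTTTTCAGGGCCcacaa
Hist1h4b (chr13:23849230-23849255, plus strand): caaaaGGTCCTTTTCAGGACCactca
Hist1h1e (chr13:23713646-23713671, minus strand): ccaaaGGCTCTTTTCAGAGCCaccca
Hist3h2a (chr11:58768669-58768694, plus strand): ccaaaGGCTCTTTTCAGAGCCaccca
Hist1h2bc (chr13:23776511-23776536, plus strand): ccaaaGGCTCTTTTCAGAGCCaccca
Hist1h3e (chr13:23653767-23653792, minus strand): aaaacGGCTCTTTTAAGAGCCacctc
Hist2h2ac (chr3:96024336-96024361, minus strand): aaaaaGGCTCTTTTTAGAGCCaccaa

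A hairpin of this form, with a 6-base stem opening on GG and a 4-base loop opening on TT, was searched in the 300 bases behind the stop codon. It was present in 58 of 67 members with an annotated stop codon (86.6%) and in 19 of 22192 other protein-coding genes (0.0856%). The first base of the hairpin lay 21 to 58 nt behind the stop codon, with a median of 31 nt. All 12 H4 genes with a hairpin had a stem beginning GGCCC or GGTCC, whereas the 46 hairpins of the other types began GGCTC. The form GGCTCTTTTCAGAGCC alone accounted for 36 members and occurred in H1, H2a, H2b and H3 genes. The hairpin was not found in 9 members, among them *Hist2h2bb* and *Hist1h4a*, which says only that these letters were not in the window searched.

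The annotated models did not all reach the hairpin. Of the 58 genes, 15 had a model that ended before the last base of the hairpin. In 9 the model ended at that base or up to 20 nt behind it, and in 34 it ran further. The models of 7 members had more than 1 exon. FPKM is taken per length of the model, so a short model such as that of *Hist4h4*, with 312 nt, made 1 fragment worth 0.238 FPKM in WT, against 0.0151 FPKM for *Hist3h2a* with 1990 nt.

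Levels of the members were low in both libraries. The median member was at 0.54 FPKM in WT against 0.78 FPKM in ΔM, and the highest reached 29.1 FPKM in WT against 32.3 FPKM in ΔM. In WT, 6 members were listed at 0, 37 lay above 0 and under 1 FPKM, 25 from 1 to under 5 FPKM and 3 at 5 FPKM or more. In ΔM these numbers were 6, 33, 25 and 7. A mean of at least 1 FPKM over both libraries was reached by 28 of 71 members, namely 2 of 6 H1, 6 of 20 H2a, 8 of 19 H2b, 1 of 13 H3 and 11 of 13 H4 genes. *Hist1h2ah*, *Hist1h2ap* and *Hist1h3g* were listed at 0 in both libraries. In bulk RNA, a different number of cells in S phase and a different amount of histone mRNA per cell cannot be told apart, and neither can the genotypes be told apart from the single cultures.

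The depth was not given with the FPKM values but could be estimated from them, because the low values of genes with a single transcript fell on steps of whole fragments. The best steps put the WT library near 36840000 fragments and the ΔM library near 32520000, with 87.6% and 88.5% of the low values within 0.1 of a whole fragment. On this scale the members together held 1642 fragments in WT and 1982 in ΔM. The median member held 7.47 fragments in WT and 8.96 in ΔM, and 33 of 70 members with a known length had fewer than 10 in each library. Most single members therefore had wide counting intervals, and the sums by histone type carried more of the information.

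H4, one of the histone pairs at the heart of the nucleosome, made up 58.2% of the summed FPKM of all members in WT and 55.2% in ΔM. By estimated fragments, H4 held about 572 of 1642 in WT and 615 of 1982 in ΔM. Its sum was 65.9 FPKM in WT against 80.6 FPKM in ΔM. *Hist1h4d* (ENSMUSG00000061482, chr13:23673467-23673859, plus strand, 1 exon) was the highest member at 29.1 FPKM in WT (95% counting interval 25.3 to 33.4) and 32.3 FPKM in ΔM (28.1 to 37.1). It alone gave 44.2% of the H4 sum in WT and 40.1% in ΔM, and its intervals overlapped between the libraries.

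*Hist1h4c* (ENSMUSG00000060678, chr13:23789929-23790323, minus strand) followed at 13.3 FPKM in WT against 14.9 FPKM in ΔM. *Hist1h4h* (ENSMUSG00000060981, chr13:23622919-23623388, plus strand) was at 6.40 FPKM in WT (4.93 to 8.17) and 9.96 FPKM in ΔM (7.99 to 12.3), intervals that touched over a short range. These genes encode the same class of core histone, yet their levels per length were separated. *Hist1h4d* lay above *Hist1h4c* beyond the counting intervals in both libraries, and *Hist1h4c* lay above *Hist1h4h* in WT. The share of 100-nt exon windows found once in the genome was 100% for *Hist1h4d*, 65.9% for *Hist1h4c* and 61.5% for *Hist1h4h*. The counting intervals do not cover fragments lost to unique mapping, and the part of such loss in the separation was not tested. Ranked by level, only 2 of 27 neighbouring pairs among the 28 members were apart in WT and 2 of 27 in ΔM. Neighbouring ranks below these leading genes were thus not resolved. Members further apart in rank could be, as *Hist3h2a* (2.94 to 3.84 FPKM) above *Hist2h2bb* (1.68 to 2.51 FPKM) in WT.

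*Hist4h4* (ENSMUSG00000068851, chr6:136752589-136752900, minus strand, 1 exon), the only member on chromosome 6, differed most among the 28 members. It was at 1.89 FPKM in WT (0.812 to 3.74) and 6.16 FPKM in ΔM (3.90 to 9.26), a ratio of 3.26. On the scale log2((ΔM + 1) / (WT + 1)), used for all single genes below, this was a difference of 1.31. The value rests on about 7.92 fragments in WT and 22.8 in ΔM. The model of *Hist4h4* holds the coding part only and ends before the hairpin shown above.

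Of the remaining H4 genes averaging at least 1 FPKM, *Hist1h4n*, *Hist1h4m*, *Hist2h4* and *Hist1h4b* were higher in ΔM and *Hist1h4f*, *Hist1h4i* and *Hist1h4k* were lower, all with overlapping counting intervals. *Hist1h4a* was at 0.32 FPKM in WT against 1.26 FPKM in ΔM, about 4.02 and 13.97 fragments, and *Hist1h4j* went the other way from 0.83 to 0.40 FPKM on about 7.00 and 2.98 fragments.

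**Figure D1:**
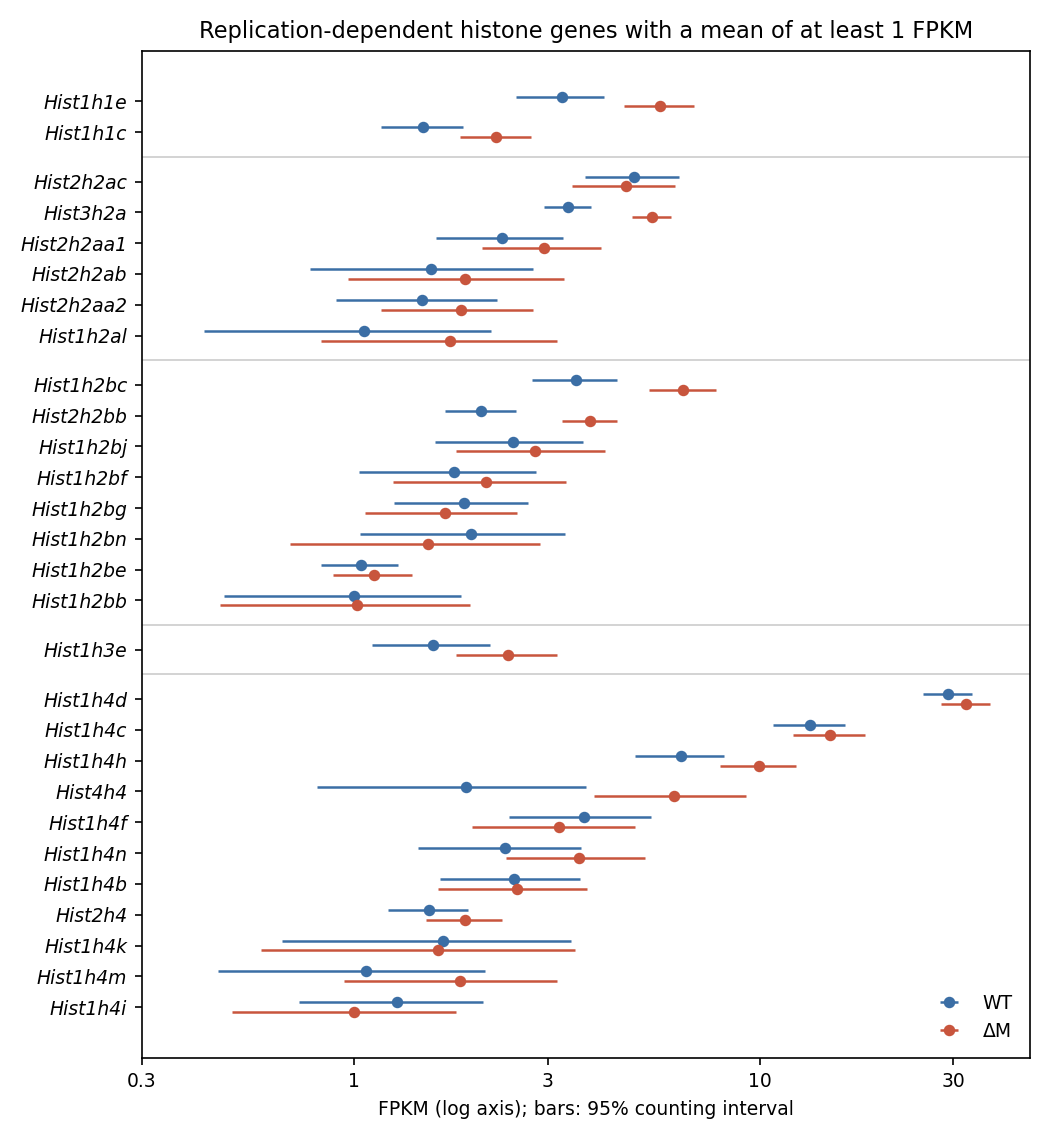
FPKM of the 28 replication-dependent histone genes averaging at least 1 FPKM, on a log axis, grouped from top to bottom as H1, H2a, H2b, H3 and H4 and ordered by mean within each type. Points are the single WT and ΔM libraries and bars their 95% counting intervals. *Hist1h4d* and *Hist1h4c* lie at the far right in both libraries, and the bars are apart for *Hist1h1e*, *Hist3h2a*, *Hist1h2bc*, *Hist2h2bb* and *Hist4h4*, each with ΔM higher.

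Linker histone H1 binds the DNA between nucleosomes. Its 6 genes summed to 5.69 FPKM in WT against 9.05 FPKM in ΔM, of which *Hist1h1e* (ENSMUSG00000051627, chr13:23713624-23714371, minus strand) held 57.1% and 62.7%. *Hist1h1e* was at 3.25 FPKM in WT (2.51 to 4.14) and 5.67 FPKM in ΔM (4.62 to 6.89), and these intervals were apart. *Hist1h1c* (ENSMUSG00000036181), with a model of 1560 nt, was at 1.48 FPKM in WT (1.16 to 1.86) and 2.24 FPKM in ΔM (1.82 to 2.73), and its intervals just overlapped.

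The other H1 genes were under 1 FPKM and did not share a direction. *Hist1h1a* was at 0.15 FPKM in WT against 0.78 FPKM in ΔM, about 3.03 and 13.9 fragments, with a log2 ratio without pseudocount of 2.38 (0.54 to 4.80). *Hist1h1b* was at 0.65 FPKM in WT against 0.22 FPKM in ΔM, about 13.1 and 3.90 fragments. *Hist1h1d* was at 0.12 and 0.14 FPKM.

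Core histones H2A and H2B pair as dimers in the nucleosome. The FPKM sums of their genes were close to each other in both libraries. Those of H3 and H4, which also pair, were not, at 5.73 and 65.9 FPKM in WT. FPKM weights short genes more, and by estimated fragments these sums were 112 and 572 in WT. *Hist1h4d* alone gave 44.2% of the H4 sum of FPKM in WT. At least 50% of exon windows were found once in the genome for 6 of 13 H3 and 10 of 13 H4 genes. How much of the gap came from fragments lost to unique mapping was not tested. The H2a genes summed to 18.5 FPKM in WT against 24.9 FPKM in ΔM, and the H2b genes to 17.5 and 24.1 FPKM. Among H2a genes, *Hist2h2ac* (ENSMUSG00000068855, chr3:96024284-96024803, minus strand) was at 4.89 FPKM in WT (3.71 to 6.32) and 4.67 FPKM in ΔM (3.45 to 6.18). *Hist3h2a* (ENSMUSG00000078851, chr11:58768187-58770176, plus strand) was at 3.37 FPKM in WT (2.94 to 3.84) and 5.43 FPKM in ΔM (4.85 to 6.06). The first had overlapping intervals and the second had intervals that were apart.

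*Hist3h2a* was the best covered member, with about 222 fragments in WT and 316 in ΔM, or 54.7% and 61.4% of all H2a fragments. Its model runs 1487 nt beyond the hairpin, and where along the model the fragments fell cannot be told from FPKM. The exon of *Hist3h2a* overlaps exons of *Trim17* on the same strand, and that gene was at 0.10 FPKM in WT against 0.11 FPKM in ΔM. The twin genes *Hist2h2aa1* (2.32 FPKM in WT, 2.94 FPKM in ΔM) and *Hist2h2aa2* (1.47 FPKM and 1.84 FPKM) have no 100-nt stretch found once in the genome, so the division of their fragments is uncertain.

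Among H2b genes, *Hist1h2bc* (ENSMUSG00000018102, 2 exons, chr13:23776068-23784357, plus strand) was at 3.52 FPKM in WT (2.74 to 4.45) and 6.48 FPKM in ΔM (5.34 to 7.79). *Hist2h2bb* (ENSMUSG00000050936, 2 exons, chr3:96073644-96082924, plus strand) was at 2.06 FPKM in WT (1.68 to 2.51) and 3.82 FPKM in ΔM (3.26 to 4.45). Both had intervals that were apart, with ΔM higher by a ratio of 1.84 for the first and 1.85 for the second. The model of *Hist1h2bc* ends 7826 nt beyond the hairpin on the genome, and no hairpin was found for *Hist2h2bb*. Their fragments may thus lie outside an mRNA that ends at the hairpin. *Hist1h2bj* was at 2.47 FPKM in WT (1.58 to 3.67) and 2.79 FPKM in ΔM (1.79 to 4.15). *Hist1h2bn* and *Hist1h2bg*, with log2 differences of -0.22 and -0.10, were lower in ΔM with overlapping intervals.

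H3, the partner of H4, was represented weakly, with sums of 5.73 FPKM in WT against 7.39 FPKM in ΔM. Only *Hist1h3e* (ENSMUSG00000069273, chr13:23653403-23654238, minus strand) passed a mean of 1 FPKM, at 1.57 FPKM in WT (1.11 to 2.17) and 2.4 FPKM in ΔM (1.78 to 3.17). *Hist1h3h* was at 0.94 FPKM and 0.85 FPKM, and *Hist1h3f* at 0.54 FPKM and 0.99 FPKM. The intervals of all 3 genes overlapped.

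Members known for restriction to the testis served as a background for the lowest levels. *Hist1h1t* was at 0.04 FPKM in WT, about 1.05 fragments, and listed at 0 in ΔM. *Hist1h2aa* and *Hist1h2ba* were each listed at 0 in WT and at 0.16 FPKM in ΔM, about 0.999 and 0.994 fragments. Each of these levels thus rested on about 1 fragment at most.

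Over the 28 members with a mean of at least 1 FPKM, 22 (78.6%) were higher and 6 lower in ΔM. Of all 10765 genes of that level 53.8% were higher, and of the 8078 protein-coding ones 49.5%. At least a 2-fold difference on the scale with the pseudocount was reached by 1 of 28, *Hist4h4*, upwards, where 5.69% of all 10765 genes averaging at least 1 FPKM were that much higher. None was that much lower, where 3.61% of all genes were. All 28 members are protein-coding, and among the 8078 protein-coding genes of that level 1.19% were that much higher and 1.32% lower. Counting intervals were apart with ΔM higher for 5 of 28 (17.9%), where 16.6% of the 8936 genes of that level with a model of at least 300 nt were. They were apart with ΔM lower for 0 of 28, where 17.9% of those genes were. Intervals that do not overlap are a stricter rule than an interval of the ratio itself, which was added after the data were seen. The 95% counting interval of the ratio lay above 1 for 7 of 28 (25%), where it did for 23.4% of the 8936 genes and 24.4% of the protein-coding ones. The further 2 members by this rule were *Hist1h1c*, with a log2 ratio without pseudocount of 0.60 (0.15 to 1.05), and *Hist1h4h*, with 0.64 (0.16 to 1.13). It lay below 1 for 0 of 28, where it did for 24.5% of the 8936 genes and 26.5% of the protein-coding ones. The share of members higher was near that of all genes under both rules, and no member was lower under either. Both rules depend on the number of fragments, and the shares were not matched for it. The median level in WT was 1.915 FPKM for the 28 members against 6.88 FPKM for the 10765 genes.

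Below the minimum, the ratio interval lay above 1 for 3 of 42 members with a known length, *Hist1h1a*, *Hist1h4a* and *Hist1h2aj*, and below 1 for none. The share over all genes under the minimum was not computed, so these counts stand without a comparison. *Hist1h2aj*, an annotated pseudogene, also passed a 2-fold difference, from 0.18 FPKM in WT to 1.61 FPKM in ΔM. Its exons overlap those of *Hist1h2bm* on the opposite strand, and only 8.96% of its 100-nt windows are found once in the genome.

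The median log2 difference over all 71 members was 0.13, with 47 members (66.2%) above 0, 21 below and 3 at 0. The share above 0 was 53.8% over all genes averaging at least 1 FPKM, a level that most members did not reach. Among the 28 members with a mean of at least 1 FPKM the median log2 difference was 0.18. It was 0.03 over all 10765 genes of that level, -0.0015 over the 8078 protein-coding ones, and -0.0070 over 1302 protein-coding genes with models of 442 to 748 nt, the middle range of the members' lengths. Single members scattered from -0.44 (*Hist1h1b*) to 1.31 (*Hist4h4*).

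Summed over members, every histone type was higher in ΔM. The ratio of estimated fragments, each divided by the depth of its library, was 1.54 for H1 (95% counting interval 1.26 to 1.88), 1.43 for H2a (1.26 to 1.64), 1.46 for H2b (1.27 to 1.67), 1.32 for H3 (1.02 to 1.72) and 1.22 for H4 (1.08 to 1.37). Over all members it was 1.37 (1.28 to 1.46). These sums count whole models, including parts beyond the hairpin. Among the 8936 single genes used above, the counting interval of the ratio lay above 1 for 23.4% and below 1 for 24.5%. An interval without 1 was therefore common. Pooled ratios with intervals were not computed for other gene sets, so those of the histone types stand without a like comparison. The intervals of the 5 types overlapped one another, so no order among the types was resolved.

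In summed FPKM, which weights short genes more, the log2 ratio was 0.67 for H1, 0.42 for H2a, 0.46 for H2b, 0.37 for H3, 0.29 for H4 and 0.36 over all. Single genes bore on some of these sums. Without *Hist3h2a* the H2a ratio of fragments was 1.22 (0.994 to 1.501), and without *Hist1h3e* that of H3 was 1.22 (0.883 to 1.70), so both intervals then included 1. The ratio for H4 without *Hist1h4d* was 1.28 (1.11 to 1.48), and over all members without *Hist3h2a* it was 1.33 (1.24 to 1.43).

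**Figure D2:**
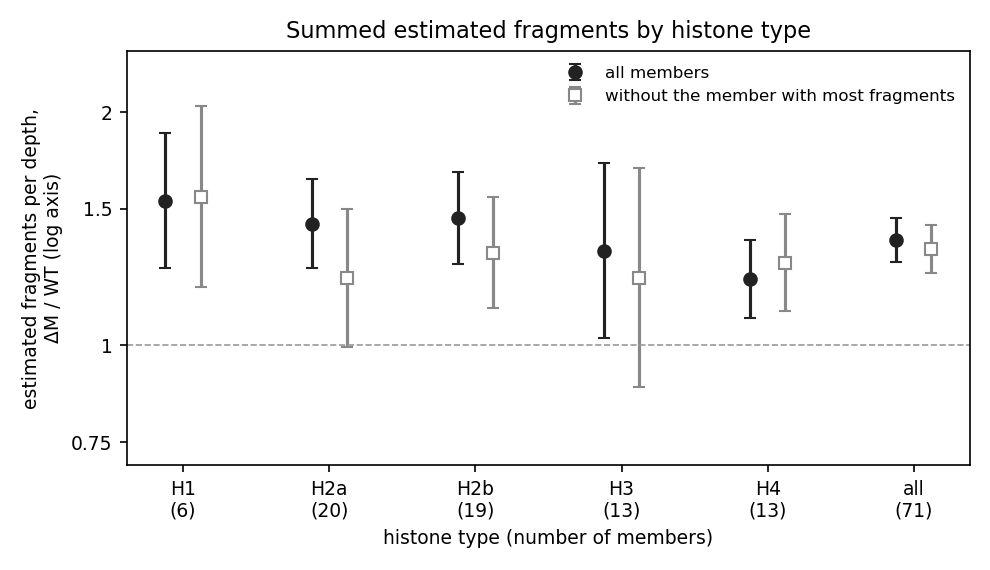
Ratio of summed estimated fragments per library depth, ΔM over WT, on a log axis, for each histone type and for all members, with 95% counting intervals. Filled circles hold all members with a known length and open squares leave out the member with most fragments (*Hist1h1c*, *Hist3h2a*, *Hist2h2bb*, *Hist1h3e*, *Hist1h4d* and, over all, *Hist3h2a*). All filled circles and their bars lie above 1, while the open squares of H2a and H3 have bars that reach below 1.

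The members lie in clusters, taken here as members with gaps of at most 150 kb. The largest, with 29 genes over 233 kb of chromosome 13 (23622919 to 23856283), gave 66.4% of the summed FPKM in WT, with sums of 75.3 FPKM in WT against 94.1 FPKM in ΔM and 21 of 29 genes higher in ΔM. A second group of 19 genes on chromosome 13 (21807632 to 21929399) summed to 12.2 FPKM in WT against 15.4 FPKM in ΔM, with 10 of 19 higher. The 11 genes on chromosome 3 (96023788 to 96082924) summed to 15.2 and 18.1 FPKM, with 7 of 11 higher. The group of 5 genes next to *Hist1h2ah* on chromosome 13 (22126982 to 22135545) was near level at 4.24 and 4.35 FPKM. Both directions occurred side by side within each of these groups. For comparison, 53.8% of all genes averaging at least 1 FPKM were higher in ΔM. The cluster counts hold members at any level, and that mean was reached by 13 of the 29, 4 of the 19 and 6 of the 11 genes. On chromosome 11 (58762413 to 58770176) all 3 genes were higher in ΔM, with sums of 3.50 and 5.93 FPKM that came mostly from *Hist3h2a*.

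**Figure D3:**
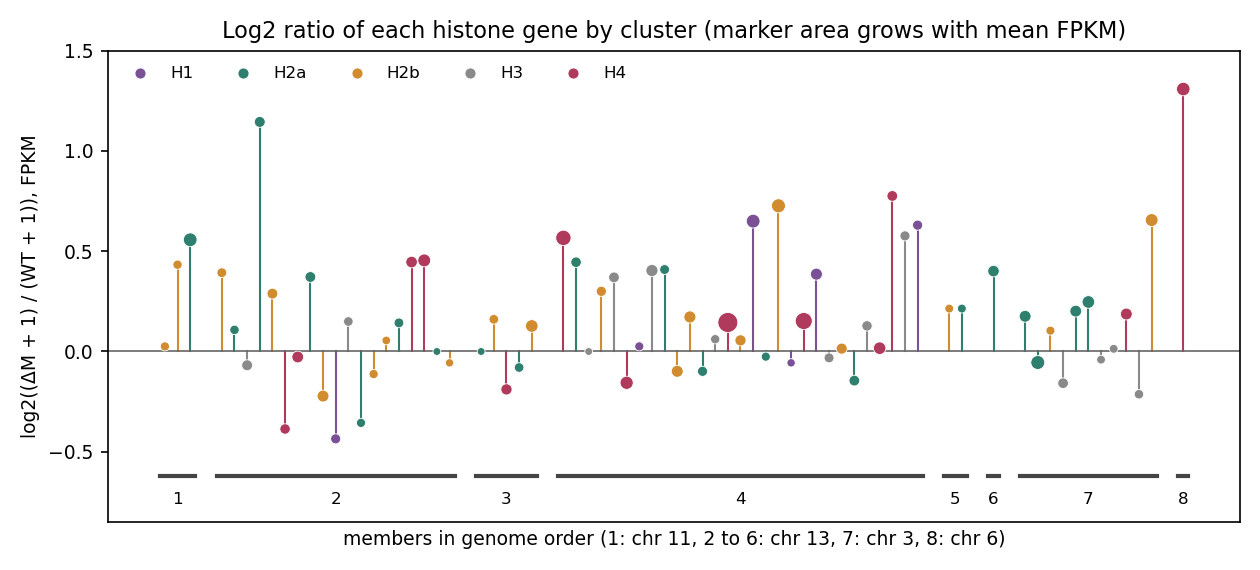
Difference of each of the 71 members, log2((ΔM + 1) / (WT + 1)) in FPKM, with members in genome order and black bars marking the clusters. Marker colour gives the histone type and marker area grows with the mean FPKM. Members above and below 0 stand next to each other in clusters 2, 3, 4 and 7, and the highest points are *Hist4h4*, alone at the right, and the pseudogene *Hist1h2aj* in cluster 2.

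Many histone genes are near-copies of one another, and the study's methods state that uniquely mapped reads were used. The exons of 5 members held no 100-nt window found once in the genome, 24 of 70 members had fewer than 50% unique windows and 10 had unique windows only. Levels of at least 1 FPKM were reached by 6 of the 24 and by 22 of the 46 members with at least 50%. *Hist1h4d*, the highest member, and *Hist4h4* had unique windows only. The sum of the 46 members was 97.3 FPKM in WT against 125 FPKM in ΔM, and that of the 24 was 16.0 and 20.4 FPKM. Both sums were thus higher in ΔM. Member by member, 34 of the 46 were higher in ΔM, with a median log2 difference of 0.16. Of the 24, 12 were higher, with a median of 0.03, and their estimated fragments were 173.9 in WT and 185.1 in ΔM before division by depth. The 5 members without a unique window still held about 58.1 fragments in WT and 67.4 in ΔM, so such exons were not empty in the deposited values. How many fragments of the less unique genes were lost was not tested.

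**Figure D4:**
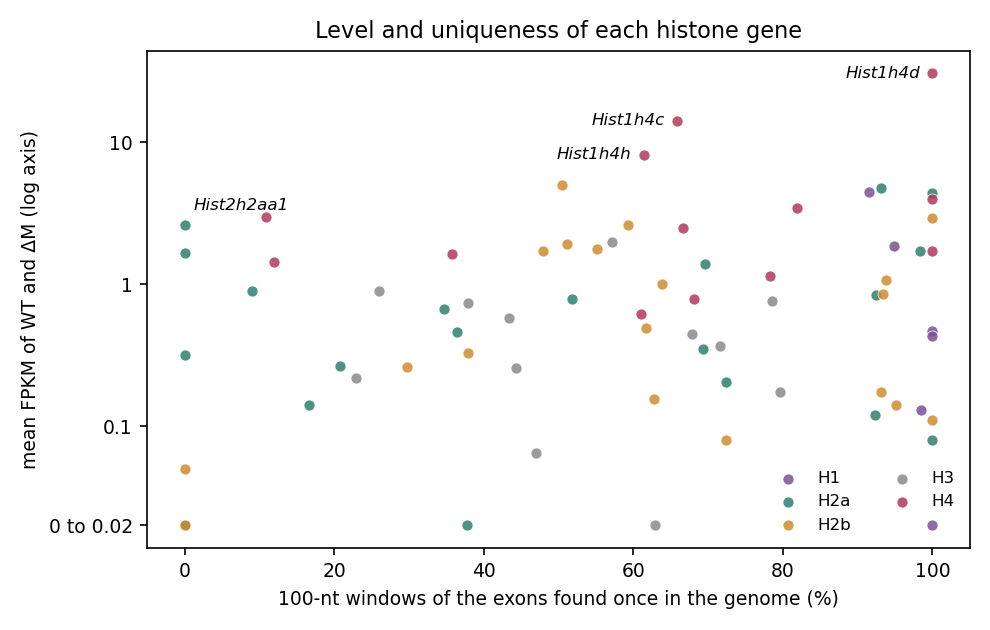
Mean FPKM of both libraries on a log axis against the percentage of 100-nt exon windows found once in the genome, for the 70 members in the annotation, coloured by histone type. Points at the lowest tick are means from 0 to 0.02 FPKM. *Hist1h4d*, *Hist1h4c* and *Hist1h4h*, the highest points, lie right of 50%, and *Hist2h2aa1* is the highest point at 0%.

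The members also shared letters at their starts. Promoter sequences from RefSeq (GRCm38.p6, 250 bases before to 50 after the start) were matched for 62 members, which stand for 61 RefSeq genes, through older symbols, and both strands were searched. CCAAT was present in all 6 H1, 17 H2a, 16 H2b and 10 H3 promoters but in 3 of 12 H4 promoters, and in 41.0% of 26964 other genes. The octamer ATTTGCAT was present in 7 of 17 H2a and 7 of 16 H2b promoters, in none of the H1, H3 or H4 promoters, and in 1.92% of other genes. TATAAA was present in 4 of 6 H1, 11 of 17 H2a, 8 of 16 H2b, 4 of 10 H3 and 8 of 12 H4 promoters, and in 15.6% of other genes. These are matches of letters, and binding was not measured.

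Genes around the members were followed as lists. Replication-independent histone genes, which supply variants outside S phase, summed to 186 FPKM for 11 genes in WT and 182 FPKM in ΔM, against 113 and 146 FPKM for all 71 members, and most of that sum came from *H2afy* and *H3f3b*. *H2afy*, for macroH2A, was at 85.1 FPKM in WT against 83.96 FPKM in ΔM, *H3f3b* at 65.8 and 68.4 FPKM, and *H2afz* at 16.1 and 12.9 FPKM. Of 8 such genes averaging at least 1 FPKM, 3 were higher and 5 lower in ΔM, with a median log2 difference of -0.01. None of the 8 had counting intervals that were apart. The lowest log2 difference was -0.64, for *H1f0* at 2.24 FPKM in WT (1.485 to 3.24) and 1.08 FPKM in ΔM (0.554 to 1.895). The less strict interval of the ratio is not given for this list or the lists below.

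Of 16 genes for the 3′ end processing and turnover of histone mRNA, 13 had a mean of at least 1 FPKM, with a median log2 difference of -0.04. Counting intervals were apart with ΔM lower for 17.9% of the 8936 genes used above. In this list, 4 of the 13 genes had intervals that were apart, all lower in ΔM. They were *Sympk* (24.8 FPKM in WT, 21.5 FPKM in ΔM), a scaffold of the cleavage complex, *Srrt* (16.0 and 13.9 FPKM), *Casp8ap2* (3.68 and 2.14 FPKM), a factor of histone pre-mRNA cleavage, and *Zcchc11* (5.31 and 3.16 FPKM), a uridylyltransferase. *Casp8ap2* and *Zcchc11* were picked out after their values were seen. *Cstf2*, for a cleavage factor subunit, was at 23.0 and 25.1 FPKM, and *Slbp* itself was at 1.46 FPKM in WT (1.02 to 2.02) and 1.28 FPKM in ΔM (0.8504 to 1.85). *Rnu7*, for the U7 RNA, was not analysed here.

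Of 9 histone chaperones, which hand histones to DNA, 6 had a mean of at least 1 FPKM. Against 17.9% of the 8936 genes that were apart and lower, 2 of the 6 had intervals that were apart, both lower in ΔM. These were *Daxx* at 177.5 FPKM in WT against 155 FPKM in ΔM, and *Hat1* at 48.5 and 41.5 FPKM. *Atrx* was at 8.35 and 8.44 FPKM.

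Genes of S phase and cycling were low like the members. Of 21 such genes 8 had a mean of at least 1 FPKM. Of these 8, 7 were higher in ΔM, where 53.8% of all genes of that level were. The median log2 difference of the 8 was 0.20. *Cdk1*, the mitotic kinase, was at 3.24 FPKM in WT (2.47 to 4.18) and 9.25 FPKM in ΔM (7.83 to 10.9), a log2 difference of 1.27. *Pcna*, the replication clamp, was at 7.99 and 9.23 FPKM and *Mcm6*, of the replicative helicase, at 9.38 and 10.3 FPKM, both with overlapping intervals. *Mcm5*, also of the helicase, was at 2.15 FPKM in WT (1.88 to 2.45) and 2.80 FPKM in ΔM (2.47 to 3.16). Intervals were thus apart for 2 of the 8 genes, *Cdk1* and *Mcm5*, both with ΔM higher, where 16.6% of the 8936 genes were. The list summed to 33.4 FPKM in WT and 44.7 FPKM in ΔM, a log2 ratio of 0.42. *Mki67*, a proliferation marker under the minimum, was lower in ΔM at 0.71 FPKM in WT (0.626 to 0.802) and 0.42 FPKM in ΔM (0.352 to 0.497). *Mcm5* and *Mki67* were picked out after their values were seen. *Cdt1* was not analysed here. The part of these genes in the histone values was not tested.

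The targeted gene *Zfp36*, for TTP, was at 65.3 FPKM in WT against 16.7 FPKM in ΔM, lower but still detected. The 7 macrophage markers ranged from 104 to 2481 FPKM in WT and from 109.8 to 1356 FPKM in ΔM, the top value being *Lyz2*, the locus that carries Cre. Markers of the other cell types given here were all under 1 FPKM, with summed levels in WT and ΔM of 0.20 and 0.37 FPKM for neutrophil and progenitor markers, 0 and 0.03 FPKM for T cells, 0.61 and 0.43 FPKM for fibroblasts and 0.06 and 0.10 FPKM for dendritic cells. *Elane*, *Ly6g*, *Ngp*, *Cd3e* and *Cd3g* were listed at 0 in both libraries.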

How the data were processed

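Control RNA-Seq was available for 1 WT and 1 ΔM library. Per the study's methods, the authors removed adaptors with Cutadapt, used Segemehl to place the paired-end reads on mm9, discarded reads without a unique position and computed the deposited FPKM with Cufflinks on Ensembl exons. Fragments were selected for size as cDNA, and strand use in counting is not given in the sources used here. A gene with shared exons or near-copies can therefore hold too many or too few fragments.

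All values here start from those FPKM. Log2 ratios carry a pseudocount of 1 FPKM. Depth and mean fragment length (199.2 nt in WT, 199.0 nt in ΔM) were searched as the pair that put low values of genes with 1 transcript nearest to whole fragments, a step tested on simulated data. Poisson intervals of single genes and Clopper-Pearson intervals of ratios were set at 95%, assume independent fragments and cover counting error only. Coordinates, models and hairpins come from GENCODE on NCBIM37. 1 gene of the table holds no number. Python 3.11.15, numpy 2.4.6, pandas 2.3.3, scipy 1.17.1 and numba 0.67.0 were used.

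The members and lists were chosen with earlier results of these data known. Named were, in each type, the 3 members with the highest mean, members with a mean of at least 1 FPKM that differed at least 2-fold, the testis-restricted members, and in each other list the 3 genes with the highest mean and any that differed 2-fold. Other members and list genes were named after their values were seen. Some marker genes are not reported here.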

Additional observations from a re-analysis of the deposited data

How the results depend on the processing

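No paired analysis was possible because each genotype has 1 library and the values come from no test. The number of members at or above the minimum was 61 at a minimum of 0.1 FPKM and 2 at a minimum of 10 FPKM. The 1 member that was 2-fold higher became 2 with no minimum and 0 with a minimum or a pseudocount of 10 FPKM, and none was 2-fold lower under any of these settings. The median log2 difference of all members was 0.26 with a pseudocount of 0.1 FPKM and 0.018 with a pseudocount of 10 FPKM, which shrinks low genes by construction. It was 0.10 after centring on the median of all genes.

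For the log2 ratio of the FPKM sums, leaving out the highest member or the less unique members, using estimated fragments, and centring moved no type beyond the margin of its counting interval. The widest move was in H3, which was at 0.74 with the 6 members that had at least 50% unique windows, against 0.37 with all 13. After seeing the data, 2 further settings were added. Without members whose exons overlap another gene, which removes *Hist3h2a*, H2a was at 0.23. In members under 1 FPKM only, the ratio was 0.25 for H1, 0.73 for H2a, 0.95 for H2b, 0.53 for H4 and 0.57 over all. No sum changed direction under any alternative run. Centring on the median of all genes turned 5 of 71 members from just above 0 to below it, *Hist1h1d*, *Hist3h2ba*, *Hist1h4b*, *Hist1h2bb* and *Hist2h3c1*. Of 213 values of single members under the other pseudocounts and centring, 21 moved beyond the margin of their counting intervals, all with another pseudocount. Depth limits single members, since 33 of 70 held fewer than 10 fragments in each library.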
